A study of Homo sapiens with 8 samples.

Results

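The genes described here encode the ADAM, ADAMTS and MMP metalloproteases, the ADAMTS-like proteins and the TIMP inhibitors. They were chosen by symbol alone, as the protein-coding genes named ADAM, ADAMTS, MMP or TIMP with a number or ADAMTSL1 to ADAMTSL5, which gave 71 of the 60668 genes in the files: 20 ADAM, 19 ADAMTS, 5 ADAMTSL, 23 MMP and 4 TIMP genes. RNA-Seq was performed on polyA+ RNA of D283-OMO cells, a derivative of the medulloblastoma line D283 MED that carries, by lentiviral transduction and hygromycin selection, a doxycycline (DOX)-inducible, Flag-tagged OMOMYC. OMOMYC is a dominant-negative form of MYC. The comparison was of 4 libraries from untreated cells (OMO) with 4 from cells given DOX for 72 h (OMO+DOX), which the study describes as independent biological replicates. Both groups carry the transgene, and DOX-treated cells without it were not analysed here, so OMOMYC and DOX itself cannot be told apart.

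ADAMs are membrane-anchored proteins. Those with a catalytic site cleave the extracellular part of other membrane proteins, which releases growth factors and opens Notch receptors to gamma-secretase, whereas those without one serve in adhesion. ADAMTSs and most MMPs are secreted and cut proteoglycans, collagens and other matrix proteins, membrane-type MMPs act at the cell surface, and TIMPs bind and block the catalytic site of many of these enzymes. The active enzymes among these proteins are zinc-dependent and are made as inactive precursors. DOX itself is a known inhibitor of MMP activity. For both reasons, RNA levels do not measure proteolysis.

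Total counts ranged from 38390696 to 54020506 per library. Pearson's r of log2 CPM was 0.992 to 0.998 among OMO libraries, 0.996 to 0.998 among OMO+DOX libraries and 0.893 to 0.909 between the groups. MYC RNA stood at 937 ± 75.5 CPM in OMO and 1120 ± 56.6 CPM in OMO+DOX (SD, n = 4). Counts per gene cannot, however, separate MYC from the MYC-derived transgene. OMOMYC acts on MYC protein, which the study reports as strongly decreased by immunoblot after DOX. The MYC targets CAD and NCL fell, from 162 to 116 and from 1550 to 1142 CPM. Of 8 markers of Group 3 medulloblastoma all were measured. Their summed level was 3252 to 3322 CPM in OMO and 1774 to 1914 CPM in OMO+DOX. At an adjusted p below 0.05, 6 of them were lower and 2 higher, where 76.6% of all genes tested were called. Levels are given as CPM, the expected counts of a gene relative to the TMM-scaled size of its library, and log2FC is OMO+DOX over OMO.

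Of the 71 genes, 35 exceeded 1 CPM in 4 or more libraries and were tested with edgeR's quasi-likelihood test and Benjamini-Hochberg adjustment over 15222 genes. At an adjusted p below 0.05, 20 were higher and 9 lower in OMO+DOX, or 82.9% of those tested, against 76.6% of all genes. With both directions pooled, passing this threshold thus does not set the family apart. The split by direction was uneven, 20 against 9, where 38.5% of all genes were higher and 38.1% lower. The stricter rule in the methods of the study (FDR below 0.001 and a log2FC beyond 2 in either direction) was met by 7.12% of all genes. By it, 8 of the 35 were upregulated, or 22.9%, against 4.38% of all genes, and 1 was downregulated, or 2.86%, against 2.75%. The results of the study state an FDR below 0.01 instead, which also left 8 upregulated and 1 downregulated. The median log2FC was 0.64 over the 35 genes and 0.01 over all genes tested, and 51.4% of the 35 had an absolute log2FC above 1 against 20.9% of all genes. The libraries of the groups did not overlap for 27 of 35, or 77.1%, against 71.7% of all genes. Counts of called or non-overlapping genes in each family and list are to be read against these shares of all genes. ADAM32 and ADAMTS9 passed the filter on low counts through OMO+DOX alone and ADAMTS14 through OMO alone, so that a difference was built into their passing.

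**Figure D1:**
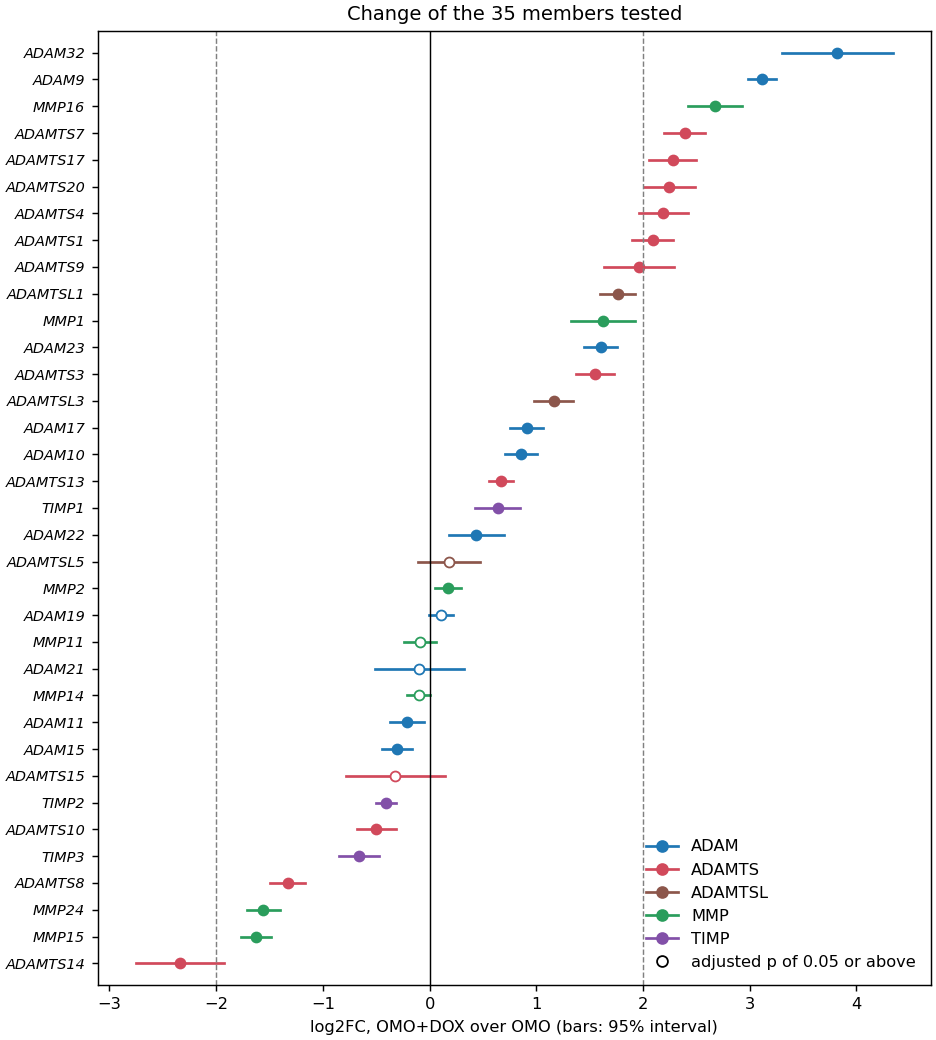
Log2FC of OMO+DOX over OMO (x axis) for the 35 genes tested, ordered by size, with bars for the 95% interval, colour for the family and open points for an adjusted p of 0.05 or above; dashed lines mark a log2FC of -2 and 2. Of the 8 points right of 2 that were upregulated, 5 are ADAMTSs, 2 are ADAMs and 1 is MMP16, and ADAMTS14 alone lies left of -2.

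Among ADAMs with a catalytic site, the sheddases ADAM9, ADAM10 and ADAM17 rose and ADAM15 fell. ADAM9, which sheds growth factor precursors such as HBEGF, lies on chromosome 8 from 38996869 to 39105144. It measured 48.4, 46.9, 41.3 and 46.7 CPM in the OMO libraries and 392, 417, 398 and 380 CPM in the OMO+DOX libraries. Every OMO+DOX library was thus far above every OMO library, with group means of 45.8 ± 3.12 and 397 ± 15.7 CPM, an 8.66-fold difference (log2FC 3.11, SE 0.06, edgeR adjusted p = 2.04e-12). By mean CPM, ADAM9 ranked 4638 among the genes tested in OMO and 284 in OMO+DOX, and 12 genes in all, itself included, were at least as abundant after DOX and at least as strongly increased. Per kilobase of transcript, it moved from rank 7 among the 35 protease and inhibitor genes to rank 1, from 11.9 to 103 CPM per kb.

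ADAM10, the main sheddase of Notch receptors, N-cadherin and the amyloid precursor protein, was at 114, 110, 92.0 and 108 CPM in OMO and 195, 204, 187 and 184 CPM in OMO+DOX (log2FC 0.86, SE 0.07, edgeR adjusted p = 2.85e-07). ADAM17, which releases TNF and several EGF receptor ligands, was at 42.0, 41.9, 34.0 and 42.5 CPM in OMO and 75.4, 79.3, 73.2 and 73.7 CPM in OMO+DOX (log2FC 0.91, SE 0.07, edgeR adjusted p = 2.28e-07). Neither gene overlapped between the groups, and both rose by less than 2-fold, to 1.81 and 1.88 times the OMO mean. ADAM17 shares 1323 bp, 12.3% of its exonic bases, with IAH1 on the other strand, whose own level was 22.5 CPM in OMO and 25.0 CPM in OMO+DOX (edgeR adjusted p = 0.110). Whether reads were counted by strand is not stated in the sources used here.

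ADAM15, an ADAM with an integrin-binding disintegrin domain, fell by 0.30 on the log2 scale, from a range of 48.8 to 56.8 CPM in OMO to 38.2 to 44.5 CPM in OMO+DOX. ADAM19, at a log2FC of 0.11, and ADAM21, at -0.10, did not pass the threshold, with 95% intervals of -0.00825 to 0.22 and -0.52 to 0.32. Summed per kilobase over the 20 ADAM genes, the level went from 58.7 ± 1.76 in OMO to 167 ± 4.44 in OMO+DOX. ADAM9 made up 19.2 to 21.1% of that sum in the OMO libraries and 61.0 to 62.9% in the OMO+DOX libraries. The other ADAMs together went from between 45.3 and 47.3 to between 63.1 and 64.6 CPM per kb, so most of the increase in the sum was ADAM9.

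**Figure D2:**
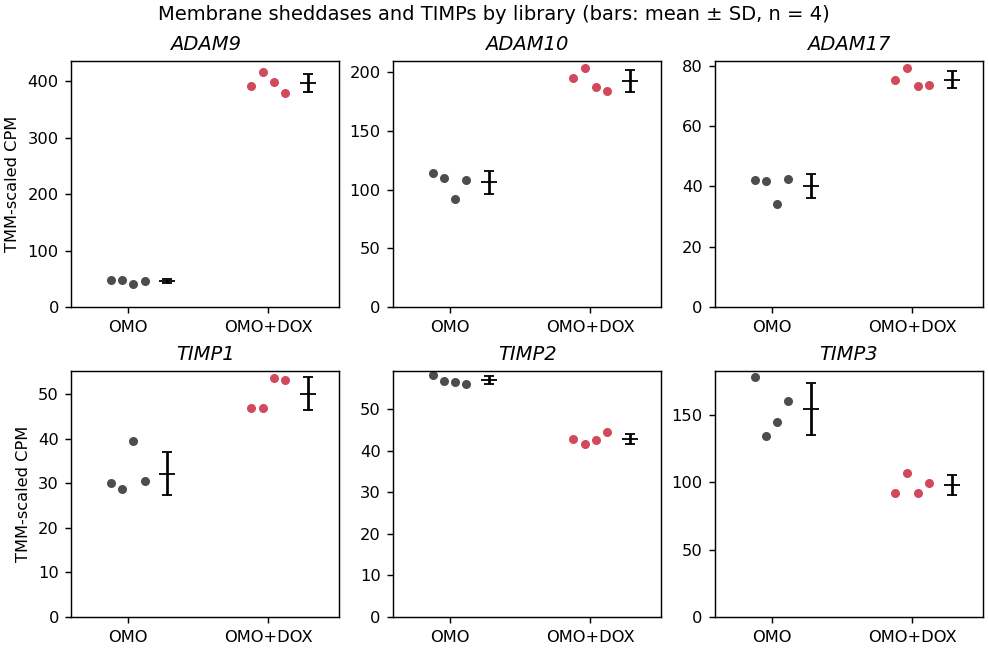
CPM (y axes, linear from 0) of 3 sheddases and 3 TIMPs in each of the 4 OMO (grey) and 4 OMO+DOX (red) libraries, with the mean and SD of each group beside the points. The sheddases and TIMP1 lie higher in every OMO+DOX library than in any OMO library, and TIMP2 and TIMP3 lie lower in every OMO+DOX library.

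Of the 8 ADAMs without a catalytic site, 4 were tested, of which 3 were higher and 1 lower, at a threshold that 76.6% of all genes passed. ADAM32, best known from testis, lies on chromosome 8 from 39106990 to 39284911, 1845 bp beyond the end of ADAM9 on the same strand. It gave 4 to 14 counts per library in OMO and 104 to 167 in OMO+DOX, or 0.27, 0.17, 0.08 and 0.31 CPM against 3.28, 2.59, 3.12 and 2.75 CPM. The groups did not overlap (log2FC 3.82, SE 0.24, edgeR adjusted p = 3.36e-08), but the OMO libraries rest on few counts and differed several-fold among themselves. The gene also passed the filter through OMO+DOX alone, so a difference was built in. Even after DOX, ADAM32 remained low per length, at rank 29 of 35, and the next genes of the same chromosomal row, ADAM18 and ADAM2, had no counts in any library.

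ADAM11, ADAM22 and ADAM23 are neuronal surface receptors for the secreted LGI proteins, and ADAM22 is anchored at synapses by PSD-95. ADAM23 measured 4.38, 4.58, 4.00 and 4.67 CPM in OMO and 13.9, 13.0, 13.8 and 12.8 CPM in OMO+DOX, a 3.04-fold rise with no overlap (log2FC 1.60, SE 0.07, edgeR adjusted p = 1.82e-09). ADAM22 rose by a log2FC of 0.44, from 10.4 to 15.8 CPM in OMO to 16.8 to 20.4 CPM in OMO+DOX. ADAM11 fell by 0.21 on the log2 scale with overlapping groups, since its highest OMO+DOX library (13.6 CPM) exceeded its lowest OMO library (13.2 CPM).

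Of the 6 LGI ligands and PSD-95 family partners of these receptors, 4 were tested. Of these, 2 were higher and 2 lower, or 100% called against 76.6% of all genes, and their median log2FC was -0.25. LGI4, a ligand known from peripheral myelination, was at 1.68 to 1.86 CPM in OMO and 0.08 to 0.27 CPM in OMO+DOX and was downregulated (log2FC -3.27, SE 0.23, edgeR adjusted p = 9.74e-08), but it passed the filter through OMO alone.

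Of the 9 genes called under the stricter rule, 6 were ADAMTSs, although the largest log2FC values were those of ADAM32, ADAM9 and MMP16. Of 19 ADAMTS genes, 12 were tested, with a median log2FC of 1.76. At the adjusted p threshold that 76.6% of all genes passed, 8 were higher and 3 lower. Under the stricter rule 5 were upregulated and 1 downregulated, where 4.38% and 2.75% of all genes were. In the clade that cuts aggrecan, versican and related hyaluronan-binding proteoglycans, 6 of 7 genes were tested. Of these, 4 were higher and 1 lower, again at a threshold that 76.6% of all genes passed. ADAMTS1 (chromosome 21, 26835747 to 26845409), which cuts versican and aggrecan and binds heparin, was at 2.97, 2.66, 2.68 and 3.04 CPM in OMO and 10.9, 13.3, 11.7 and 12.5 CPM in OMO+DOX (log2FC 2.09, SE 0.09, edgeR adjusted p = 1.24e-09). ADAMTS4 (chromosome 1, 161184308 to 161199056), an aggrecanase also known to cut brevican, was at 3.32, 2.66, 2.62 and 3.55 CPM in OMO and 14.0, 12.5, 14.4 and 14.5 CPM in OMO+DOX (log2FC 2.19, SE 0.10, edgeR adjusted p = 3.51e-09). Both genes were clear of overlap, with each OMO+DOX library at more than 10 CPM and each OMO library below 4 CPM.

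ADAMTS20 (chromosome 12, 43353866 to 43551921), needed for melanoblast development in mice, was at 2.75, 2.51, 2.19 and 2.91 CPM in OMO and 13.6, 12.9, 12.2 and 10.4 CPM in OMO+DOX (log2FC 2.25, SE 0.11, edgeR adjusted p = 4.46e-09). Its closest relative, ADAMTS9, went from 0.67 to 0.77 CPM to 2.38 to 3.46 CPM, a log2FC of 1.96 (SE 0.15, edgeR adjusted p = 2.32e-07), just short of the fold threshold. ADAMTS9 passed the filter through OMO+DOX alone, so a difference was built in. ADAMTS8, whose angiostatic activity is known, went the other way: it was at 16.7, 15.2, 15.3 and 15.2 CPM in OMO and 6.12, 5.42, 6.55 and 6.70 CPM in OMO+DOX, 2.52-fold lower (log2FC -1.33, SE 0.07, edgeR adjusted p = 1.44e-08). ADAMTS8 and ADAMTS15 lie 19980 bp apart on opposite strands of chromosome 11, and ADAMTS15 had a log2FC of -0.32 with a 95% interval of -0.79 to 0.14.

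The aggrecanase ADAMTS5 was too low to be tested, with 0, 0, 2 and 0 counts in OMO and 35, 23, 28 and 24 counts in OMO+DOX. Against a floor of 3 counts per library, its mean was at least 8.70-fold higher in OMO+DOX, and at 0.58 CPM its level after DOX was still low. It lies 72502 bp from ADAMTS1 on the same strand of chromosome 21. ADAMTS5 is named here after its values were seen.

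Among procollagen N-proteinases, which trim the amino ends of fibrillar procollagens, ADAMTS14 and ADAMTS3 went in opposite directions. ADAMTS14 (chromosome 10, 70672803 to 70762441) was the only downregulated gene, at 2.06, 1.60, 2.19 and 1.52 CPM in OMO and 0.30, 0.32, 0.39 and 0.44 CPM in OMO+DOX. The groups did not overlap and OMO was 5.09-fold higher (log2FC -2.34, SE 0.19, edgeR adjusted p = 3.46e-07), with 13 to 20 counts left in each OMO+DOX library. ADAMTS14 passed the filter through OMO alone, so a difference was built in. ADAMTS3, which also activates the lymphangiogenic factor VEGF-C, was at 10.5, 9.50, 8.38 and 10.6 CPM in OMO and 29, 28.8, 30.3 and 25.9 CPM in OMO+DOX, 2.92-fold higher (log2FC 1.55, SE 0.08, edgeR adjusted p = 6.60e-09). ADAMTS2, the third enzyme of this kind, had 10 to 13 counts in OMO and 13 to 19 in OMO+DOX and was not tested.

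Of the other ADAMTSs, ADAMTS7 and ADAMTS17 were upregulated. ADAMTS7 (chromosome 15, 78759203 to 78811431), which degrades the cartilage protein COMP, was at 2.97, 2.92, 2.72 and 2.64 CPM in OMO and 15.3, 12.7, 15.6 and 15.4 CPM in OMO+DOX (log2FC 2.39, SE 0.09, edgeR adjusted p = 3.85e-10). ADAMTS17 (chromosome 15, 99971589 to 100342005), linked to fibrillin microfibrils and to Weill-Marchesani-like syndrome, was at 1.53, 1.51, 1.60 and 1.54 CPM in OMO and 8.12, 7.51, 7.88 and 6.48 CPM in OMO+DOX (log2FC 2.28, SE 0.10, edgeR adjusted p = 1.55e-09). In both genes the lowest OMO+DOX library was several times the highest OMO library. The counts of ADAMTS7 were not whole in 7 of 8 libraries, meaning that RSEM shared some of its reads with other genes.

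ADAMTS13, which cuts von Willebrand factor, had the highest level per kilobase of the ADAMTSs and was at 19.6 to 21.0 CPM in OMO and 29.5 to 33.1 CPM in OMO+DOX (log2FC 0.67, SE 0.05, edgeR adjusted p = 2.42e-07). ADAMTS10, another microfibril-associated enzyme, fell by 0.50 on the log2 scale, from 18.4 ± 0.20 to 13.0 ± 1.73 CPM. The per-kilobase sum of the ADAMTSs went from 17.5 ± 0.44 to 27.2 ± 1.09 CPM per kb.

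The ADAMTS-like proteins lack the protease domain and bind matrix, fibrillin among it. ADAMTSL1 was at 3.97, 4.27, 3.91 and 4.05 CPM in OMO and 15.2, 12.8, 13.1 and 13.9 CPM in OMO+DOX (log2FC 1.76, SE 0.08, edgeR adjusted p = 1.40e-09). ADAMTSL3, the highest of these genes per kilobase, was at 6.02 to 7.55 CPM in OMO and 14.2 to 16.8 CPM in OMO+DOX (log2FC 1.16, SE 0.08, edgeR adjusted p = 1.35e-07). Both were clear of overlap, whereas ADAMTSL5, the third one tested, had a log2FC of 0.18 with a 95% interval of -0.11 to 0.47.

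**Figure D3:**
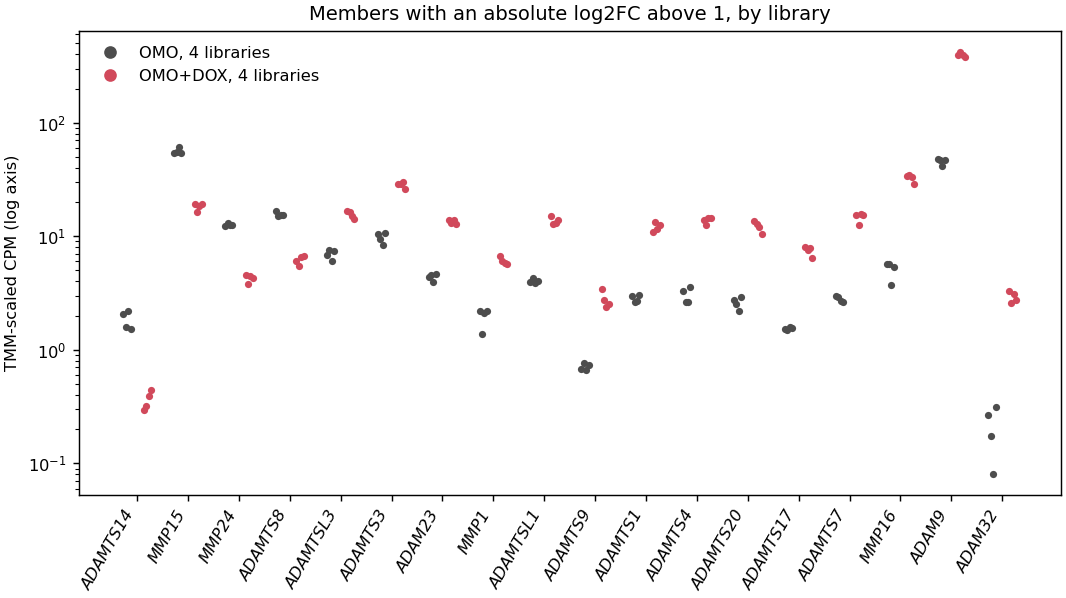
TMM-scaled CPM (log axis) in each of the 4 OMO (grey) and 4 OMO+DOX (red) libraries for the 18 genes with an absolute log2FC above 1, from the most decreased on the left to the most increased on the right. The groups are apart for each gene drawn, and the spread within a group is widest in OMO for ADAM32, from 0.08 to 0.31 CPM. For ADAM32, ADAMTS9 and ADAMTS14 a difference was built into passing the filter.

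MYC and MAX bind the E-box CACGTG, and OMOMYC acts on the same sites, so the promoters were searched for it. RefSeq promoters (GRCh38.p14, 250 bases before to 50 after the start) were matched for 44 of the 71 genes. The motif CACGTG, which reads alike on both strands, stood in 5 of these 44 (11.4%), in 10.2% of the promoters of all genes tested and in 7.43% of all promoters. Among the 23 promoters of tested protease and inhibitor genes it stood in 2 (8.70%), those of ADAM10 and ADAMTS17, shown with the E-box in capitals:
ADAM10: gtgcccgcgcgtCACGTGgtgaggaaggag
ADAMTS17: ctgcccagaaacCACGTGtaagaaagcgct
The first window lies at chr15:58749833-58749862 and the second at chr15:100342157-100342186, both on the minus strand, with the motif starting at -143 and -199 relative to the RefSeq start of the table. The GENCODE 29 gene bounds begin elsewhere: by them the ADAM10 motif starts 128 bases after the gene start, and the ADAMTS17 motif lies at -169. Both genes were higher in OMO+DOX, at a log2FC of 0.86 and 2.28. The pattern TGANTCA, looser than the AP-1 motif TGA(C/G)TCA known from inducible MMP promoters, was searched on both strands. It stood in 4 of 44 promoters (9.09%), those of MMP7, MMP10, MMP20 and ADAMTS12, of which none was tested. The match in MMP7 was TGAGTCA, and those in MMP10, MMP20 and ADAMTS12 were TGAATCA, outside the AP-1 motif. The share of TGANTCA was 7.76% of all promoters and 4.20% of those of genes tested. A match is a description of the letters and not a bound site.

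Most MMP genes were below the filter on low counts. Of 23, 7 were tested, and 8 had at most 3 counts in every library. Of those tested, 3 were higher and 2 lower, at a threshold that 76.6% of all genes passed. Of the 9 genes in the MMP cluster on chromosome 11, MMP7 to MMP13, MMP1 alone was tested. MMP1, the interstitial collagenase, was at 2.22, 1.39, 2.09 and 2.19 CPM in OMO and 6.65, 6.07, 5.85 and 5.69 CPM in OMO+DOX (log2FC 1.62, SE 0.14, edgeR adjusted p = 4.97e-07). The groups of MMP1 did not overlap, while its neighbours MMP10 and MMP3 had at most 10 counts and 1 count in any library.

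The membrane-type MMPs differed among themselves. MMP16 (chromosome 8, 88032009 to 88328025), or MT3-MMP, known from brain, was at 5.72, 5.69, 3.69 and 5.39 CPM in OMO and 34.0, 34.6, 33.3 and 29.1 CPM in OMO+DOX, 6.39-fold higher (log2FC 2.68, SE 0.12, edgeR adjusted p = 1.62e-09). MMP15, or MT2-MMP, was at 54.7, 55.0, 61.5 and 53.8 CPM in OMO and 19.1, 16.3, 18.3 and 19.1 CPM in OMO+DOX, 3.09-fold lower (log2FC -1.63, SE 0.06, edgeR adjusted p = 7.23e-10). MMP24, or MT5-MMP, which cuts N-cadherin in neural cells, was at 12.2, 13.0, 12.6 and 12.7 CPM in OMO and 4.54, 3.80, 4.45 and 4.30 CPM in OMO+DOX, 2.95-fold lower (log2FC -1.56, SE 0.07, edgeR adjusted p = 2.42e-09). None of these 3 genes overlapped between the groups.

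MMP14, or MT1-MMP, the activator of pro-MMP2 and the most abundant MMP per kilobase over all libraries, was at 46.7, 48.6, 50.3 and 49.0 CPM in OMO and 46.4, 42.1, 45.7 and 46.8 CPM in OMO+DOX. Its groups overlapped at 46.7 and 46.8 CPM, and the log2FC of -0.10 had a 95% interval of -0.21 to 0.0019 (edgeR adjusted p = 0.0683). MMP15 stood beside it in OMO, at 13.2 against 13.0 CPM per kb, and at 4.29 against 12.1 CPM per kb in OMO+DOX. Their ranges over the OMO libraries overlapped, at 12.7 to 14.5 and 12.5 to 13.5 CPM per kb, so that their order there is not resolved.

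Of the gelatinases, MMP2 was at 33.6, 33.6, 36.3 and 35.0 CPM in OMO and 40.7, 35.3, 40.2 and 40.0 CPM in OMO+DOX. The difference was small and the groups overlapped (log2FC 0.17, SE 0.06, edgeR adjusted p = 0.0132), and it no longer passed without OMO replicate 2 (adjusted p = 0.0534). MMP9 was near the limit of detection, with 7 to 9 counts in OMO and 9 to 24 in OMO+DOX, and was not tested. MMP11, or stromelysin-3, had a log2FC of -0.09 with a 95% interval of -0.24 to 0.06. The per-kilobase sum of the MMPs was 45.6 ± 1.43 CPM per kb in OMO and 39.5 ± 1.83 CPM per kb in OMO+DOX.

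MMP24 shares 799 bp, 18.1% of its exonic bases, with MMP24OS on the other strand, which also fell, from 26.7 to 18.8 CPM (log2FC -0.51, edgeR adjusted p = 0.000331). Expected counts were not whole in all 8 libraries for ADAM17, MMP2, MMP24 and TIMP2, so these values rest in part on reads divided between genes.

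**Figure D4:**
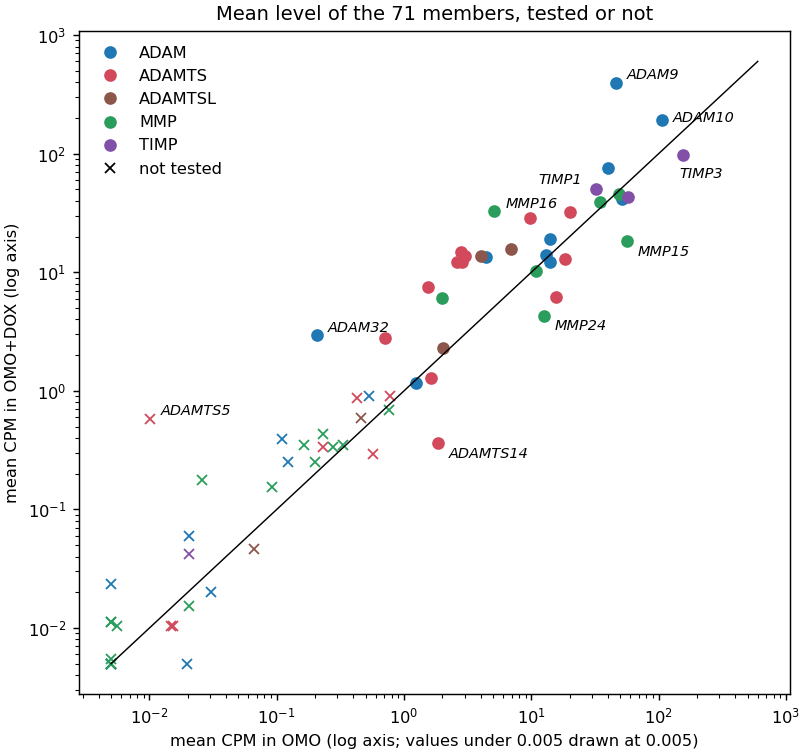
Mean CPM in OMO (x, log axis) against mean CPM in OMO+DOX (y, log axis) for all 71 genes, coloured by family, with crosses for the 36 that were not tested, values under 0.005 CPM drawn at 0.005 and a line of equal level. ADAM9 stands highest after DOX at 397 CPM, and all crosses lie below 1 CPM on both axes.

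Of the 4 TIMPs 3 were tested, and these inhibitors changed in opposite directions. TIMP1, an inhibitor of most secreted MMPs, was at 30.1, 28.6, 39.4 and 30.6 CPM in OMO and 46.8, 47.0, 53.5 and 53.1 CPM in OMO+DOX (log2FC 0.64, SE 0.09, edgeR adjusted p = 6.95e-05). TIMP2, which takes part in the activation of pro-MMP2 by MMP14, was at 58.3, 56.8, 56.6 and 55.9 CPM in OMO and 42.8, 41.7, 42.6 and 44.5 CPM in OMO+DOX (log2FC -0.41, SE 0.04, edgeR adjusted p = 2.60e-06). TIMP3, which is bound to the matrix and inhibits ADAM17 and aggrecanases as well, was at 178, 134, 144 and 160 CPM in OMO and 92.1, 107, 91.8 and 99.6 CPM in OMO+DOX (log2FC -0.66, SE 0.09, edgeR adjusted p = 2.35e-05).

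None of the 3 overlapped between the groups, and all differed by less than 2-fold. TIMP4 had 1 to 3 counts per library. Per kilobase, the TIMP sum was 85.1 ± 6.22 in OMO and 89.1 ± 4.16 in OMO+DOX, with overlapping ranges, while its make-up shifted: TIMP1 was 38.2 to 48.5% of the sum in OMO and 60.3 to 65.5% in OMO+DOX. The share of TIMP3 went from 34.4 to 43.7% to 21.8 to 26.6%, and that of TIMP2 from 17.0 to 20.3% to 12.7 to 13.9%. The sum and the shares depend on the transcript length used, which is 892 bp for TIMP1. Without division by length, the TIMP sum fell from 243 ± 19.4 CPM in OMO to 191 ± 7.22 CPM in OMO+DOX, with no overlap. Per kilobase of all exons, TIMP3 rather than TIMP1 was highest over all libraries, at 27.3 against 26.7 CPM per kb. TIMP1 and TIMP3 lie within SYN1 and SYN3 on the other strand, which were at 4.28 and 0.09 CPM in OMO and 4.18 and 0.44 CPM in OMO+DOX.

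Of the 36 genes not tested, 16 had at most 3 counts in every library, and 5 of these had no count at all: ADAM2, ADAM18, ADAM30, MMP26 and MMP27. The highest group mean among the 36 was 0.91 CPM, that of ADAM8 in OMO+DOX. When the filter was left out, ADAM8, ADAM28, ADAMTS5, ADAMTS19, MMP9, MMP19 and MMP25 were higher and ADAMTS6 lower at an adjusted p below 0.05, named here after their values were seen. MMP19 had 0 to 3 counts in OMO and 6 to 10 in OMO+DOX, at least 2.63-fold higher against a floor of 3 counts.

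The regulators of these proteases include the convertases that remove their propeptides, the iRhoms and tetraspanins that escort ADAM17 and ADAM10, plasminogen activators and further inhibitors. Of 27 such genes 23 were tested, 13 were higher and 8 lower, or 91.3% called against 76.6% of all genes, with 5 upregulated and a median log2FC of 0.28. PLAT, the tissue plasminogen activator, was at 0.94 to 1.24 CPM in OMO and 113 to 132 CPM in OMO+DOX (log2FC 6.78, SE 0.09, edgeR adjusted p = 1.18e-13). PCSK5, a proprotein convertase, went from 1.93 to 22.8 CPM (log2FC 3.55), SPOCK3, a proteoglycan that inhibits membrane-type MMP activity, from 1.15 to 11.5 CPM (log2FC 3.31), and SFRP1, a Wnt antagonist known to bind ADAM10, from 0.25 to 2.0 CPM (log2FC 2.96). SFRP1 passed the filter through OMO+DOX alone.

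Of 18 matrix substrates 10 were tested, 5 were higher and 3 lower, which is near the 76.6% called among all genes, and the median log2FC was 0.58. TNC, or tenascin-C, rose from 1.56 ± 0.40 to 15.3 ± 1.28 CPM (log2FC 3.30), and FBN2, a fibrillin of embryonic microfibrils, from 8.53 ± 1.58 to 62.7 ± 3.18 CPM (log2FC 2.88). TNR, or tenascin-R of perineuronal matrix, was downregulated from 2.90 ± 0.67 to 0.51 ± 0.15 CPM (log2FC -2.49) and passed the filter through OMO alone. The proteoglycans ACAN, BCAN and VCAN, classical substrates of ADAMTS1 and ADAMTS4, were all below 1 CPM in every library and were not tested. The related proteoglycan NCAN was tested and fell from 9.25 ± 0.65 to 2.75 ± 0.36 CPM without overlap (log2FC -1.75, edgeR adjusted p = 1.88e-08). All of these proteoglycans are named after their values were seen.

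Of 31 membrane proteins shed by ADAM10 or ADAM17, 24 were tested, 15 were higher and 5 lower, or 83.3% called against 76.6% of all genes, with 7 upregulated, 1 downregulated and a median log2FC of 0.64. CHL1, a neural adhesion molecule, rose from 0.10 to 4.40 CPM (log2FC 5.38), and DLL1, a Notch ligand, from 0.43 to 8.94 CPM (log2FC 4.36), and both passed the filter through OMO+DOX alone. HBEGF, a ligand of the EGF receptor, rose from 1.18 to 8.68 CPM (log2FC 2.88). CDH2, or N-cadherin, the best known adhesion substrate of ADAM10, rose from 50.8 ± 3.82 to 363 ± 8.93 CPM (log2FC 2.84). The downregulated gene, named after its value was seen, was IL6R, the interleukin-6 receptor, which went from 53.6 ± 8.63 to 7.97 ± 0.68 CPM (log2FC -2.75).

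All 6 gamma-secretase genes, whose complex cuts the membrane stubs that shedding leaves, were tested. Of these, 3 were higher and 2 lower, or 83.3% called against 76.6% of all genes, with a median log2FC of 0.18. APH1B was upregulated, from 0.22 to 0.39 CPM in OMO to 1.01 to 1.36 CPM in OMO+DOX (log2FC 2.04), and passed the filter through OMO+DOX alone.

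**Figure D5:**
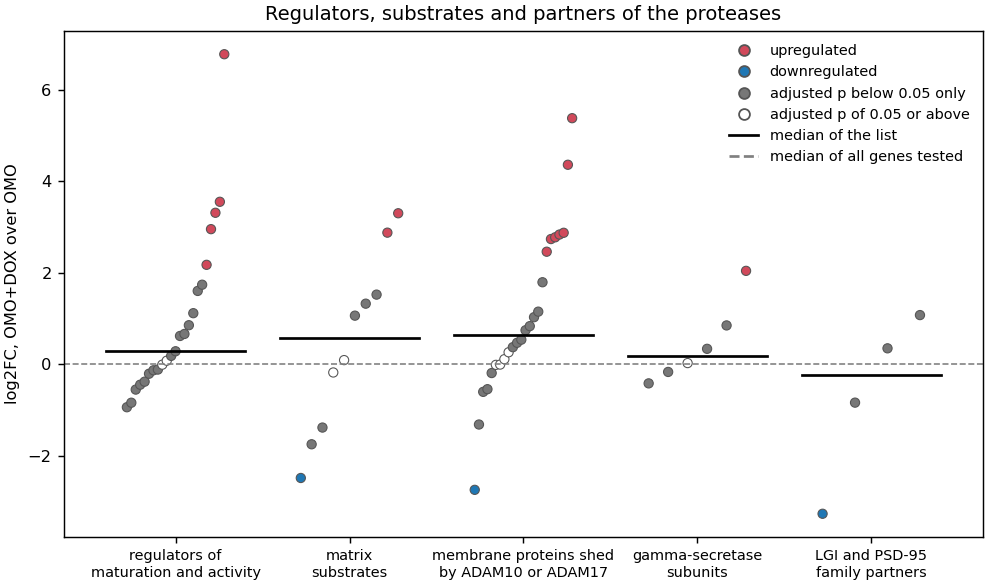
Log2FC of OMO+DOX over OMO (y axis) of each gene tested in 5 lists of regulators, substrates and partners, with black bars for the median of a list and a dashed line for the median of all genes tested (0.01). The list medians lie between -0.25 and 0.64, and PLAT stands highest at 6.78.

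Markers of cell types that produce many of these proteases were read beside the results, and their part in them was not tested. The summed level of 7 fibroblast or mesenchymal markers was 36.5 to 38.3 CPM in OMO and 56.5 to 70.2 CPM in OMO+DOX. It was carried by COL1A1 and PDGFRB, of which PDGFRB rose (log2FC 1.58). PDGFRA was higher too (log2FC 0.54), with overlapping groups. COL1A2, DCN, LUM and THY1 went the other way, below 1 CPM in every library and not tested. Their means fell from 0.22 to 0.01, 0.60 to 0.01, 0.10 to 0.02 and 0.05 to 0.01 CPM. The groups overlapped for LUM and THY1 but not for COL1A2 and DCN. The sums of 4 endothelial markers (3.06 to 4.05 against 5.37 to 6.14 CPM) and 5 immune markers (0.45 to 0.60 against 2.44 to 3.03 CPM) were higher in OMO+DOX, with PECAM1, PTPRC and CD3E below 0.12 CPM throughout. Of the endothelial markers, CDH5 had no count in OMO and 1.52 to 2.07 CPM in OMO+DOX, KDR went from 0.35 to 2.74 CPM (log2FC 2.98) and VWF fell from 3.25 to 1.24 CPM (log2FC -1.39). The immune sum was carried by LYZ, which went from 0.15 to 2.14 CPM (log2FC 3.77), and CDH5, KDR and LYZ passed the filter through OMO+DOX alone. The 4 astrocyte or glial markers summed to 3.59 to 4.81 CPM in OMO and 2.59 to 2.87 CPM in OMO+DOX, and 6 neuronal or progenitor markers to 133 to 142 and 139 to 146 CPM. Within the latter sum SOX11 rose from 22.3 to 114 CPM (log2FC 2.35), while NEUROD1 fell from 94.2 to 20.1 CPM (log2FC -2.23) and DCX from 16.7 to 4.30 CPM (log2FC -1.96). All libraries were of the cultured D283-OMO line, so these sums are levels of marker RNA in it and not numbers of other cell types. In bulk RNA, fewer cells of a type and less RNA per cell cannot be told apart.

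Within OMO, replicate 3 had the lowest CPM of ADAM9, ADAM10, ADAM17, MMP16, ADAMTS3 and ADAMTSL3 and the highest of MMP15, ADAM15 and TIMP1. Without it, 20 genes were higher and 9 lower, with 8 upregulated and 1 downregulated.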

How the data were processed

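Per the labels and the methods of the study, polyA+ RNA was sequenced from 8 stranded, paired-end libraries, which the authors trimmed with Trim Galore, aligned with STAR to GRCh38 (GENCODE release 32) and quantified with RSEM; tool versions and the strand setting of the counting are not given in the sources used here. The authors deposited RSEM expected counts per gene, not normalized, in which reads that match several genes are already divided. Groups and replicate numbers were taken from sample titles.

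Expected counts were rounded to whole numbers and all 60668 genes of the 8 libraries entered the table. Genes above 1 CPM in 4 or more libraries were tested with edgeR 4.0.16 in R 4.3.3 (TMM, quasi-likelihood test, Benjamini-Hochberg adjustment, no covariate). A gene was called upregulated or downregulated where its FDR was below 0.001 and its log2FC beyond 2 in either direction. The SE of a log2FC was derived from the F statistic of its test. A floor of 3 counts was used for lower bounds of folds; it covers counting error only, because reads carried no molecular identifiers. Symbols, coordinates and lengths were taken from GENCODE 29 (GRCh38), where 96.5% of the gene identifiers and all 71 genes described were found. Levels per kilobase are CPM over the length of the principal transcript.

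Genes named were those called upregulated or downregulated, the next 10 by absolute log2FC at an adjusted p below 0.05, the TIMPs, ADAM10, ADAM17, MMP2, MMP9, MMP14 and the highest gene per kilobase of each protease family; of the other lists, the called genes, at most 4 a list. Genes outside this rule are named to account for the members or where stated. The members and lists were chosen with earlier results of these data known. Alternatives were library size only, DESeq2 size factors, a likelihood ratio test in edgeR, DESeq2 1.42.0 with its Wald test, other filters, an FDR of 0.01, a replicate block and each library left out. The fits were tested on simulated data with planted changes in a small part of the genes. That check does not cover changes as broad as those here, where 76.6% of the genes tested were called. Other steps used Python 3.11.15 with pandas 2.3.3 and numpy 2.4.6. Transcript isoforms were not analysed here.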

Additional observations from a re-analysis of the deposited data

Results flagged for a closer look

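In 8 of the 54 groups of 4 libraries examined, each a named gene in OMO or in OMO+DOX, 1 library stood apart from the other 3 by Dixon's criterion, where chance alone gives about 1 in 20, or 2.7. In OMO+DOX replicate 2, the library with the fewest counts, ADAMTS7 was at 12.7 CPM (others 15.3 to 15.6), MMP2 at 35.3 CPM (others 40.0 to 40.7) and ADAMTS13 at 29.5 CPM (others 32.5 to 33.1). In OMO replicate 3, MMP16 was at 3.69 CPM (others 5.39 to 5.72), ADAM17 at 34.0 CPM (others 41.9 to 42.5) and MMP15 at 61.5 CPM (others 53.8 to 55.0). MMP1 was at 1.39 CPM in OMO replicate 2 (others 2.09 to 2.22), and ADAMTS8 was at 16.7 CPM in OMO replicate 1 (others 15.2 to 15.3). Except for MMP2, each of these libraries lay on its own group's side of all libraries of the other group.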

How the results depend on the processing

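Over the 26 named genes that were tested, 383 of 387 values under the alternatives kept their direction and their side of an adjusted p of 0.05. MMP14 turned from a log2FC of -0.10 to 0.022 with library size only, a scaling under which the median log2FC of all genes moved from 0.01 to 0.14, and passed the threshold without OMO replicate 1 (-0.13, edgeR adjusted p = 0.0423). MMP2 no longer passed with no filter on low counts (edgeR adjusted p = 0.0555) or without OMO replicate 2 (0.0534). The count of downregulated genes was 1 and became 0 when more than 1 CPM was required in more than 4 libraries, since ADAMTS14, like ADAM32, is then not tested. That filter is the one in the methods of the study, whereas its results state at least 4 samples, as used here. Library size only gave 22 higher and 8 lower genes with 9 upregulated. No filter gave 26, 10 and 10 of 66 tested, among 36881 genes tested in all. The shares of all genes called under these settings are not given here, so these counts show only how the calls moved. ADAMTS9 crossed the fold threshold with library size only and without OMO+DOX replicate 3 or 4. With each library left out in turn, 19 to 21 genes were higher, 9 to 10 lower, 8 to 9 upregulated and 1 to 1 downregulated. The r of deviations between libraries of equal replicate number was 0.20, 0.18, 0.31 and -0.24 for replicates 1 to 4, against a mean of -0.04 for other pairs. Whether replicate numbers pair the libraries was not tested. The replicate block left 20 higher, 9 lower, 8 upregulated and 1 downregulated, with 9 of 9 called genes shared. Depth limits the 16 genes with at most 3 counts in every library, for which no difference was detectable.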
